A study of Homo sapiens with 4 samples.

Results

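Chemokines and chemokine receptors were taken as every non-control probe whose gene name in the array annotation is CCL, CXCL, CCR, CXCR, XCL, XCR, CX3CL or CX3CR followed by a number, together with IL8. This gave 60 genes with 75 probes, of 27193 gene names and 34127 probes on the array. They comprised 41 ligands and 19 receptors. The rule uses names and no measured value, but it was set with earlier results of these data known. Some names in the annotation are older ones: IL8 is now CXCL8 and CXCR7 is now ACKR3.

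THP1, a human monoblastic AML cell line that carries the MLL-AF9 fusion, was transfected with 30 nM of miR-511-5p mimic or of negative control #1 mimic, and RNA was taken on day 2. A mimic is a short synthetic RNA duplex from which the cell takes up a chosen miRNA, and the control arrays also come from transfected cells, in the same low-serum medium. Each of 2 independent experiments gave 1 array per treatment, so there were 2 arrays per treatment and 4 in all, single-dye Agilent whole genome arrays read as spot intensities. All cells are of 1 line, the arrays measured mRNA, and the amount of mimic taken up was not measured here.

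Chemokines are small secreted proteins that guide leukocytes along a gradient. They bind receptors with 7 membrane passes that signal through inhibitory G proteins to phosphoinositide 3-kinase, Rac and the actin cytoskeleton. Monocytes are known both as sources of CC chemokines and as cells that respond to CCL2 through CCR2 and to CCL3 and CCL5 through CCR1.

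The mature miRNA that the mimic supplies is shown because the comparison rests on it, and the capitals mark its seed, bases 2 to 8. The sequence is that of RefSeq on GRCh38.p14 at chr10:17845122-17845142 on the plus strand.
hsa-miR-511-5p: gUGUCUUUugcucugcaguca

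Between 64.8% and 69.3% of all probes were well above background per array, no spot was saturated, and 22638 probes entered the tests. Of 12 listed monocytic markers, 10 were on the array and all 10 were well above background on all 4 arrays, with none differing between treatments at the threshold used below and a summed log2 intensity of 16.75 to 16.96 per array. CDH1, EPCAM and KRT19 of epithelial cells, COL1A1, COL1A2 and COL3A1 of fibroblasts, CD3G of T cells and MS4A1 of B cells were well above background on no array. CD79A and CD3D were so on all 4. No marker of any list differed between treatments at that threshold.

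Of the 60 genes, 29 had a probe well above background on all 4 arrays, 6 on 1 to 3 arrays and 25 on none. A gene was counted by its most often detected probe. For CCL16, CCL19, CCL25 and CXCL12, every other probe was well above background on no array. Of the 20 CC ligands that attract monocytes, lymphocytes and eosinophils, 10 were seen on all arrays, CCL2 and CCL11 on some, and CCL1, CCL7, CCL8, CCL13, CCL14, CCL18, CCL22 and CCL26 on none. Of the 5 homeostatic CC ligands, which position lymphocytes and other cells in tissues at rest, CCL19, CCL27 and CCL28 were seen on all arrays, CCL25 on some and CCL21 on none.

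Among the 6 CXC ligands with an ELR motif, the neutrophil attractants, CXCL1, CXCL2 and CXCL5 were seen on all arrays and CXCL3, CXCL6 and IL8 on none. The 3 interferon-induced CXC ligands bind CXCR3 on T cells, and of these CXCL10 was seen on 2 arrays and CXCL9 and CXCL11 on none. CXCL12 and CXCL16 were seen on all arrays, while CXCL13, CXCL14, CXCL17, XCL1 and CX3CL1 were seen on none. Of the 19 receptors, 11 were seen on all arrays, CCR3 and CXCR1 on some, and CCR4, CCR8, CCR9, CXCR5, CXCR6 and CXCR7 on none.

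**Figure D1:**
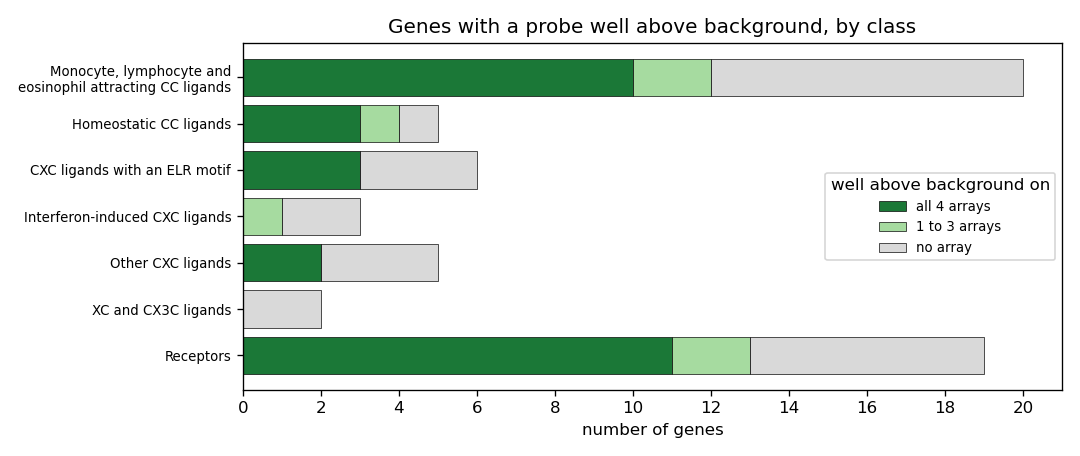
Number of chemokine and receptor genes (x axis) in each class (y axis), split by how many arrays had a probe of the gene well above background. CC ligands that attract monocytes, lymphocytes and eosinophils and receptors hold 21 of the 29 genes seen on all 4 arrays, and both XC and CX3C ligands were seen on none.

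The genes lie in clusters, and detection differed between the pair of CC clusters on chromosome 17 (hg19, positions from the outer member probes). In chr17:34199332-34524139, 7 of 9 ligands were well above background on all 4 arrays, namely CCL5, CCL16 (at 1 of its 2 probes), CCL15, CCL23, CCL3, CCL4 and CCL3L3. In chr17:32584050-32687668, none of 6 was, with CCL2 and CCL11 on some arrays and CCL7, CCL8, CCL13 and CCL1 on none.

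Tests covered the 40 member probes, of 32 genes, that cleared the background on both arrays of 1 treatment or of both, and 36 of them were so on all 4 arrays. Values are log2 intensities after quantile normalization, differences are miR-511 mimic minus control mimic (log2FC), and a probe is called at an unadjusted limma p below 0.05. Where a pair of values stands for each experiment, that of miR-511 mimic comes first and experiment 1 precedes experiment 2. These values serve to compare arrays for 1 probe and not 1 probe with another. In bulk RNA, fewer cells that express a gene and less of its RNA per cell cannot be told apart, and the 4 arrays limit the precision of every value. Of the member probes, 3 were called higher with miR-511 mimic and 0 lower: XCR1, 1 of 2 probes of CCL3L3 and 1 of 2 tested probes of CXCL2. Over all tested probes 2.20% were called, 1.27% higher and 0.932% lower. No member passed the Benjamini-Hochberg adjustment over all tested probes in limma, where every tested member probe had an adjusted p of 1.00, and no probe of the array did (0%). With 2 arrays against 2, an exact permutation test of a single gene cannot go below p = 0.333 (two-sided).

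Arrays of 1 experiment belong together, so the fit was also made with the experiment as a block. It called 10 member probes, 7 higher and 3 lower, against 3.95% of all tested probes. The blocked fit leaves 1 residual degree of freedom, so its p-values rest in large part on a variance shared across probes. Its SE was 0.077 for CCL2, CCL25 and XCR1 alike. At the brightest tested probe of each gene the number called went from 1 (XCR1) to 7 of 32, with CCL2, CCL3, CCL4 and XCR1 higher and CCL25, CXCL10 and CXCR3 lower. CCL2 passed the background filter only through its miR-511 mimic arrays, and CCL25 and CXCL10 only through their control arrays. In each this was the treatment with the higher value, so the filter itself favoured these directions. All member probes called without the block were called with it. None of these passed adjustment in the blocked fit (smallest adjusted limma p over members 0.969).

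**Figure D2:**
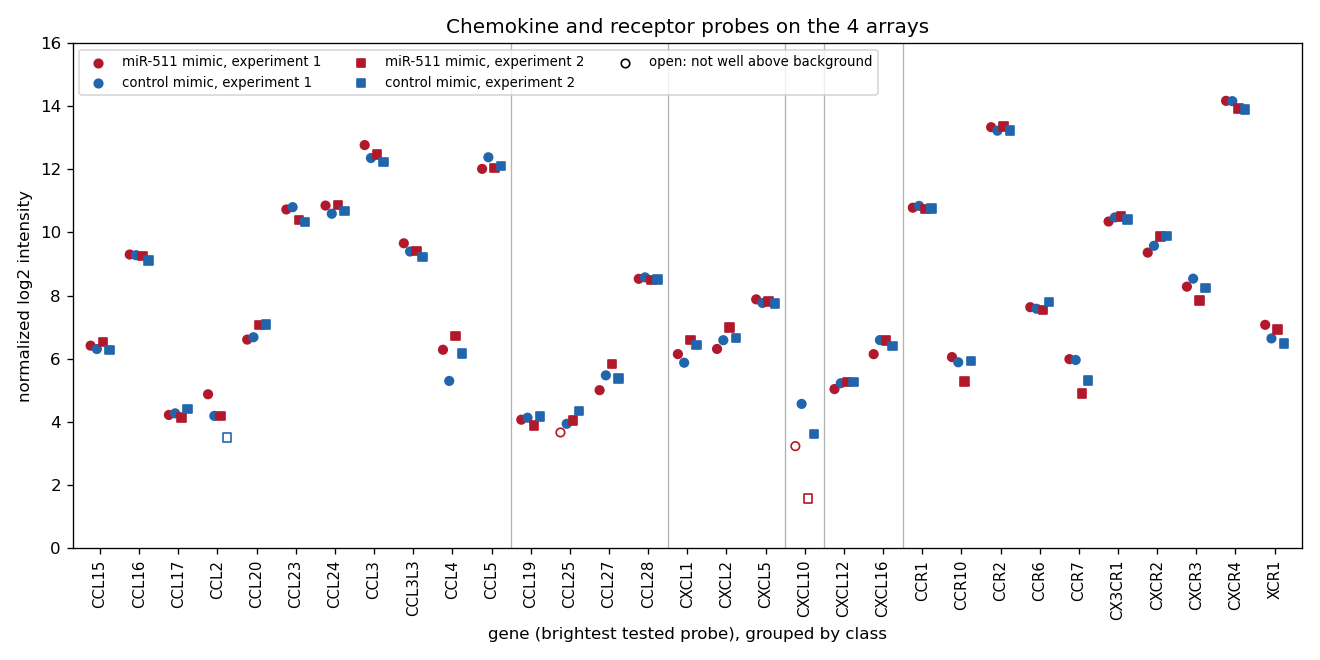
Normalized log2 intensity (y axis) of the brightest tested probe of 31 of the 32 genes (x axis), 1 point per array, grouped by class in the order of the text. The arrays of a gene mostly lie close together, and CXCL10 shows the widest spread, from 1.57 to 4.57, with both miR-511 mimic arrays not well above background.

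CCL3 and CCL4, the macrophage inflammatory proteins that attract monocytes and T cells, and CCL3L3, a near copy of CCL3, read higher on the miR-511 mimic array than on the control array in each experiment. CCL3 read 12.77 under miR-511 mimic and 12.36 under the control mimic in experiment 1, and 12.46 and 12.23 in experiment 2. Its log2FC was 0.32 (SE 0.144), with a limma p of 0.0865 without and 0.040 with the block. The treatments did not overlap. CCL3 was also called after normexp (0.32, limma p 0.0216) and without the miR-511 mimic array of experiment 2 (0.47, limma p 0.0358), and it was 0.17 without that of experiment 1.

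The brighter CCL3L3 probe, at chr17:34523201-34523260 (hg19), read 9.65 and 9.39 in experiment 1 and 9.41 and 9.23 in experiment 2, each time with miR-511 mimic first, for a log2FC of 0.22 (SE 0.135), not called. Leaving out the miR-511 mimic array of experiment 1 brought it to 0.10, and leaving out that of experiment 2 to 0.34. The dimmer CCL3L3 probe, at chr17:34524080-34524139, read 7.05 and 6.51 in experiment 1 and 7.01 and 6.58 in experiment 2. This dimmer probe of CCL3L3 rose by 0.49 (SE 0.0917, limma p 0.00546), and the call was kept in every alternative analysis run, leaving out any 1 array included. After the normexp background correction its log2FC was 0.31. Both CCL3L3 probes are also assigned to CCL3L1 in the annotation, so these copies cannot be told apart. No run of 12 or more bases is shared between the CCL3L3 probes and that of CCL3, but only probes were compared. Whether a CCL3L3 probe also binds CCL3 mRNA was not tested.

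CCL4 had 2 probes, both also assigned to CCL4L1. Its brighter probe, at chr17:34432718-34432777, read 6.28 under miR-511 mimic and 5.29 under the control mimic in experiment 1, and 6.71 and 6.16 in experiment 2. The dimmer one, at chr17:34432641-34432700, read 4.94 and 4.49, and 5.87 and 5.32, in the same order. Within each experiment the miR-511 mimic array was above its control for both probes, and across experiments the dimmer probe overlapped.

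The log2FC was 0.77 (SE 0.349) for the brighter CCL4 probe, with a limma p of 0.0894 without and 0.0143 with the block. For the dimmer CCL4 probe it was 0.50 (SE 0.440), with a limma p of 0.315 without and 0.00929 with the block. Normexp brought these down to 0.36 and 0.15. Single arrays moved the brighter probe's value between 0.34, without the control array of experiment 1, and 1.20, without that of experiment 2. The dimmer probe's value ran from 0.038, without the miR-511 mimic array of experiment 2, to 0.97, without that of experiment 1.

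CCL2, the monocyte attractant that binds CCR2, is a gene the study itself selected from these arrays, so its direction here is no independent evidence. The study counted CCL2 as differentially expressed on these arrays. It also reported CCL2 as significantly raised by RT-qPCR in additional independent experiments, on later days than here. The CCL2 probe, at chr17:32584050-32584109, was printed 10 times and read 4.87 under miR-511 mimic and 4.19 under the control mimic in experiment 1. In experiment 2 it read 4.19 and 3.50. The miR-511 mimic level of experiment 2 thus equalled the control level of experiment 1 to 2 decimals.

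The 10 spots of CCL2 showed a spread (SD) of 0.14 under miR-511 mimic and 0.24 under the control mimic in experiment 1, and of 0.28 and 0.26 in experiment 2. In experiment 1 they ran from 4.58 to 5.05 under miR-511 mimic and from 3.87 to 4.65 under the control, and in experiment 2 from 3.81 to 4.66 and from 3.07 to 4.04. The spots of each pair therefore overlapped at their edges. All 10 were well above background on 3 arrays and 4 of 10 on the control array of experiment 2, which left that array under the limit of more than 50% of spots.

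In the fit, the log2FC of CCL2 was 0.69 (SE 0.347), with a limma p of 0.117 without the block (95% interval -0.26 to 1.64) and of 0.00312 with it. The fit without the block thus did not call CCL2. Its level fell by 0.68 from experiment 1 to experiment 2, about as much as separated the treatments. Normexp brought the log2FC of CCL2 to 0.15. Without 1 array it lay between 0.34 and 1.03, and it was called without the miR-511 mimic array of experiment 2 (1.03, p 0.0457 in limma).

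**Figure D3:**
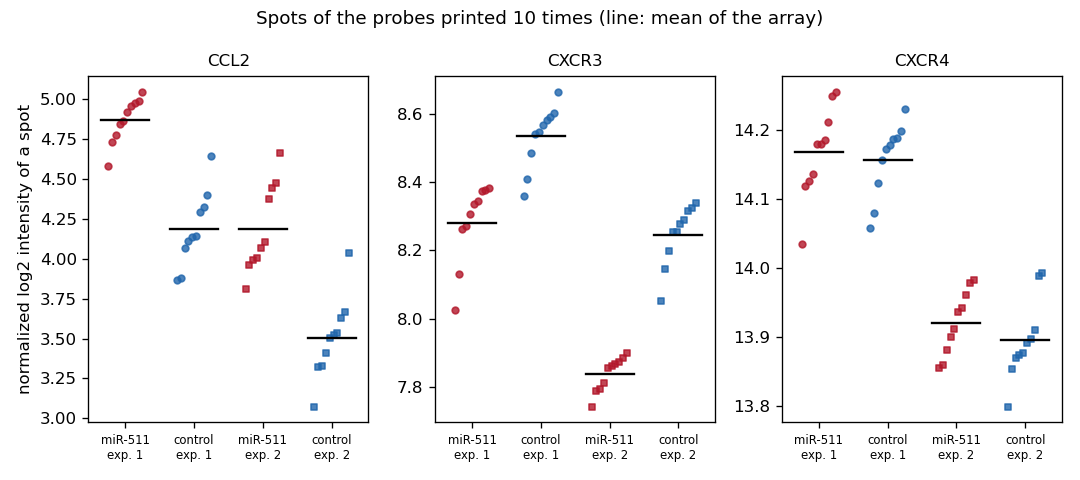
Normalized log2 intensity (y axis) of the single spots of 3 probes printed 10 times, by array (x axis), with a line at the array's mean and a separate scale per panel. The spots of CCL2 step down from 4.87 on the miR-511 mimic array of experiment 1 to 3.50 on the control array of experiment 2, whereas those of CXCR4 separate by experiment and not by treatment.

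The other tested CC ligands of this class were not called. CCL24, an eosinophil attractant, read 10.85 and 10.59 in experiment 1 and 10.87 and 10.67 in experiment 2, miR-511 mimic first, with a log2FC of 0.23 (SE 0.0925, limma p 0.0678). The treatments did not overlap, and CCL24 was called after normexp (0.24, p 0.0238), with an intensity trend in the variance (p 0.0405) and in a plain test of each probe without moderation.

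CCL15, a ligand of CCR1, read 6.41 and 6.30, then 6.53 and 6.28, for a log2FC of 0.18 (SE 0.0984). CCL16, known mostly from liver, read 9.30 and 9.28, then 9.25 and 9.11, for a log2FC of 0.08 (SE 0.106). CCL5, which binds CCR1 and CCR3, read 12.01 and 12.38, then 12.04 and 12.10, for a log2FC of -0.21 (SE 0.133). In the experiments taken singly CCL15 gave 0.11 and 0.26, and CCL5 gave -0.37 and -0.06. Without 1 array CCL5 lay between -0.36 and -0.071.

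CCL17, a ligand of CCR4, read 4.22 and 4.27, then 4.14 and 4.40, for a log2FC of -0.16 (SE 0.103), or -0.0026 after normexp. CCL20, the ligand of CCR6, read 6.60 and 6.68, then 7.06 and 7.08, for a log2FC of -0.05 (SE 0.229). CCL23, another ligand of CCR1, read 10.73 and 10.80, then 10.39 and 10.33, for a log2FC of -0.01 (SE 0.219), which turned to 0.0018 with 75th percentile scaling. For CCL20 and CCL23 the 2 experiments lay further apart than the treatments.

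Of the 11 tested genes of this class, 7 were higher and 3 lower on the miR-511 mimic array in both experiments, and the treatments did not overlap for 8, 6 of them with miR-511 mimic higher and 2 lower. Over all tested probes, 29.3% were higher in both experiments and 21.7% lower in both, and 25.7% did not overlap, 15.6% higher and 10.1% lower. The class had a median log2FC of 0.18, against 0.01 over all tested probes.

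Homeostatic CC ligands had no called member without the block. CCL25, the thymus and gut ligand of CCR9, read 3.66 and 3.94 in experiment 1 and 4.05 and 4.34 in experiment 2, and the first of these was not well above background. Its log2FC was -0.28 (SE 0.212), with a limma p of 0.252 without and 0.0359 with the block, and it was -0.049 after normexp. Without 1 array CCL25 lay between -0.48 and -0.081.

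CCL19, a ligand of CCR7, read 4.07 and 4.13, then 3.89 and 4.16, for a log2FC of -0.17 (SE 0.108), which normexp turned to 0.017. CCL28, a mucosal ligand of CCR10, read 8.53 and 8.57, then 8.48 and 8.50, for a log2FC of -0.03 (SE 0.0927). CCL27, the skin ligand of CCR10, read 5.00 and 5.47, then 5.83 and 5.37. The experiments of CCL27 went opposite ways, by -0.47 and 0.46, and its log2FC was -0.005 (SE 0.304), or 0.052 after normexp.

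CXC ligands with an ELR motif were called at 1 of 5 tested probes. The dimmer CXCL2 probe, at chr4:74964342-74964401, read 5.47 and 5.10 in experiment 1 and 5.56 and 5.14 in experiment 2, and rose by 0.40 (SE 0.0956, limma p 0.0133). The brighter CXCL2 probe, at chr4:74962985-74963044, read 6.31 and 6.58, then 6.98 and 6.66, for a log2FC of 0.03 (SE 0.253). The 2 probes of CXCL2 did not give the same picture, since the brighter one was below its control in experiment 1 and above it in experiment 2.

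The call at the dimmer CXCL2 probe was lost after normexp (0.13), with the intensity trend (p 0.0566 in limma), and without any 1 of 3 arrays (log2FC 0.35 to 0.42), the exception being the miR-511 mimic array of experiment 1. CXCL1 read 6.14 and 5.87, then 6.59 and 6.44, for a log2FC of 0.21 (SE 0.266), and 0.04 at its dimmer probe. CXCL5 read 7.88 and 7.76, then 7.80 and 7.75, for a log2FC of 0.08 (SE 0.0918). Neither was called.

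IL8, the best known neutrophil attractant of this class, was well above background on no array and was not tested. Its processed intensity, before normalization, was 7.51 under miR-511 mimic and 3.18 under the control mimic in experiment 1, and 10.5 and 4.44 in experiment 2. These values lie at the background, and a fit without the filter on dim probes called it higher.

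CXCL10, an attractant of T cells, read near background. Its brighter probe, at chr4:76943520-76943579, read 3.23 under miR-511 mimic and 4.57 under the control in experiment 1, and 1.57 and 3.62 in experiment 2. Only the control arrays were well above background, so the miR-511 mimic values give no measured size. On the mean over both experiments the probe was 1.63-fold lower with miR-511 mimic when set against a floor. That floor is the lowest intensity that passed as well above background on each miR-511 mimic array, or the probe's own intensity where higher. It is no strict limit. In experiment 1 it was 3.44 under miR-511 mimic, where the dimmer CXCL10 probe read 3.64 and did not pass. The factor is therefore no guaranteed minimum. Experiment 2 alone gives less, with a control of 3.62 against a floor of 3.33.

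The dimmer CXCL10 probe, at chr4:76942934-76942993, read 3.64 and 3.73, then 1.15 and 4.00, and was well above background only with the control mimic. It was 1.30-fold lower on the same mean against the same kind of floor, likewise no guaranteed minimum, with little difference in experiment 1. The fit gave a limma p of 0.0624 for the brighter probe without the block and 0.00474 with it, and 0.165 and 0.166 for the dimmer one. Both probes entered the tests only through the control arrays, where they were higher, and the miR-511 mimic values fitted lie at background. The filter thus favoured a lower result, and these p-values are no evidence of one. After normexp, which adds an offset that shrinks differences near background, the log2FC of CXCL10 was -0.21 (p 0.0655 in limma). Without 1 array the fitted value lay between -2.52 and -0.86, no bound since it rests on arrays at background, and it was called without the miR-511 mimic array of experiment 1.

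CXCL12, the ligand of CXCR4 that holds cells in the bone marrow, read 5.04 and 5.22, then 5.27 and 5.27, for a log2FC of -0.09 (SE 0.12). The other CXCL12 probes were well above background on no array. Among them, the probe printed 10 times read 3.19 and 2.96, then 3.34 and 3.19. CXCL16, the membrane-bound ligand of CXCR6, read 6.14 and 6.59, then 6.57 and 6.40, for a log2FC of -0.14 (SE 0.186), and -0.01 at its dimmer probe. CXCL16 was below its control in experiment 1 and above it in experiment 2.

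**Figure D4:**
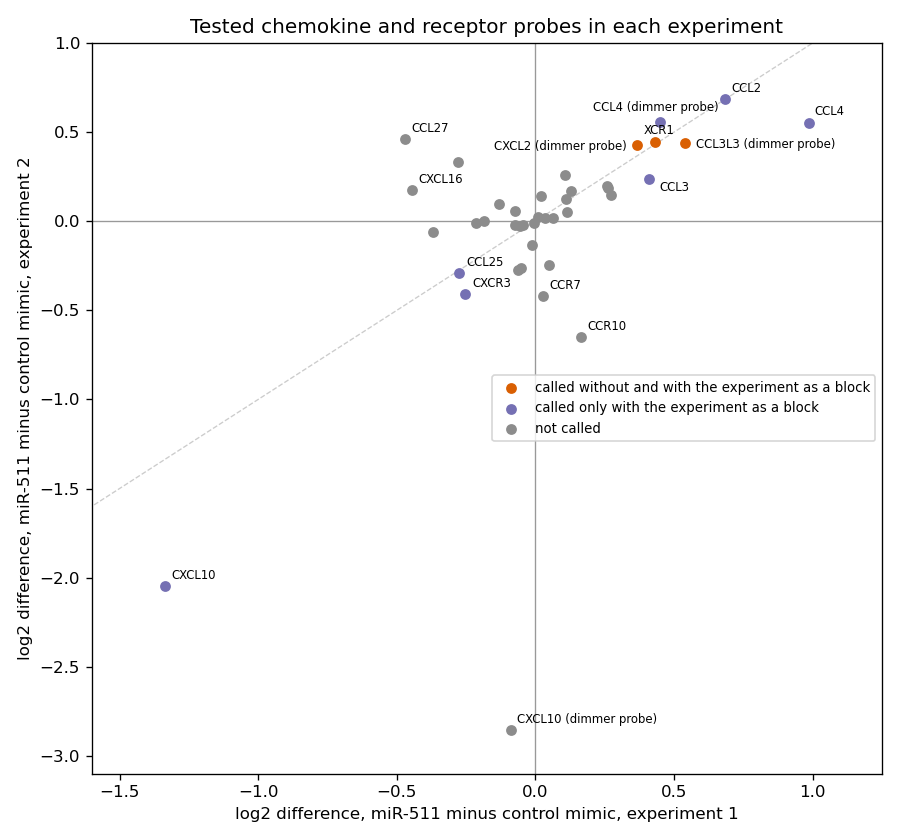
Log2 difference, miR-511 mimic minus control mimic, in experiment 2 (y axis) against experiment 1 (x axis) for the 40 tested member probes, coloured by call, with a dashed line where both are equal. CCL2, CCL4 and XCR1 lie at the upper right, between 0.43 and 0.99, and both probes of CXCL10 lie far below, at -2.05 and -2.86 in experiment 2, where their miR-511 mimic values were not well above background.

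Of the receptors, XCR1, which binds XCL1 and is known from cross-presenting dendritic cells, was called. Its probe, at chr3:46062926-46062985, read 7.07 under miR-511 mimic and 6.64 under the control mimic in experiment 1, and 6.92 and 6.48 in experiment 2. XCR1 rose by 0.44 (SE 0.118, 95% interval 0.12 to 0.76, limma p 0.0192), by 0.43 in experiment 1 and 0.45 in experiment 2. Its ligand XCL1 was well above background on no array. The call was lost without the miR-511 mimic array of experiment 1 (0.36) or the control array of experiment 2 (0.35), and in the plain test without moderation, and the value was 0.30 after normexp.

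CXCR3, the receptor of the interferon-induced ligands, had a probe printed 10 times at chrX:70835807-70835866, which read 8.28 and 8.53 in experiment 1 and 7.84 and 8.25 in experiment 2. Its spots varied with an SD of 0.051 to 0.12 per array, and those of experiment 2 did not overlap, from 7.74 to 7.90 under miR-511 mimic and from 8.05 to 8.34 with the control. The log2FC was -0.33 (SE 0.204), with a limma p of 0.178 without and 0.0348 with the block. Without 1 array it lay between -0.55 and -0.11.

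The dimmer CXCR3 probe, at chrX:70836857-70836916, read 7.11 and 7.07, then 6.85 and 6.84, for a log2FC of 0.03 (SE 0.15), and so did not share the difference of the repeated probe. Both CXCR3 probes read lower in experiment 2 than in experiment 1 under either treatment.

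CCR2, the receptor of CCL2, read 13.33 and 13.22, then 13.35 and 13.22, for a log2FC of 0.12 (SE 0.0883). Its second probe read 7.96 and 7.83, then 7.95 and 7.78, for a log2FC of 0.15 (SE 0.0902). For both CCR2 probes the miR-511 mimic arrays lay above the control arrays, and neither was called in limma. The plain test of each probe without moderation called both.

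CCR1, which binds CCL3, CCL5, CCL15 and CCL23, read 10.78 and 10.84, then 10.74 and 10.76, for a log2FC of -0.04 (SE 0.0935, 95% interval -0.30 to 0.22). The interval covers 0, and CCR1 was not called.

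CXCR4, the receptor of CXCL12, read 14.17 and 14.16, then 13.92 and 13.90, for a log2FC of 0.02 (SE 0.153). CXCR2, which binds the ELR ligands, read 9.36 and 9.57, then 9.87 and 9.88, for a log2FC of -0.11 (SE 0.225). CX3CR1, the fractalkine receptor of patrolling monocytes, read 10.34 and 10.47, then 10.50 and 10.41, for a log2FC of -0.02 (SE 0.107), which normexp turned to 0.055. None was called.

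CCR6, the receptor of CCL20, read 7.63 and 7.58, then 7.55 and 7.79, for a log2FC of -0.10 (SE 0.119). CCR7, which guides cells to lymph nodes, read 5.98 and 5.96, then 4.89 and 5.31, for a log2FC of -0.20 (SE 0.449). CCR10 read 6.05 and 5.89, then 5.28 and 5.93, for a log2FC of -0.24 (SE 0.281). In each of these the control was the lower array in experiment 1 and the higher in experiment 2.

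CCR3, the eotaxin receptor of eosinophils, was not tested, because only the control array of experiment 1 was well above background. Its single spot had a processed intensity of 434 there, against 9.89, 13.8 and 12.5 on the miR-511 mimic arrays of experiments 1 and 2 and the control array of experiment 2. CCL11, the eotaxin that binds CCR3, was likewise well above background on that array alone, with 24.4 there and 5.41 on the other control array, while both miR-511 mimic spots held a surrogate value that the scanner software sets for signals too low to measure. Both genes were thus seen on that array alone, each by 1 spot. That array also had the largest share of all probes well above background (69.3%). The lowest log2 intensity that passed on it was 2.98, against 3.33 to 3.44 on the others. The cause was not tested.

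CXCR1, the other IL8 receptor, read 3.56 and 3.59, then 3.87 and 3.15, and was well above background on 1 array of each treatment. It was not tested.

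Over the 32 genes at their brightest tested probe, 24 differed in the same direction in both experiments, 12 up and 12 down, and 8 went opposite ways. At the level of probes this was 32 of 40, 18 up and 14 down, against 51.0% of all tested probes. The treatments did not overlap for 17 of 40 member probes, 12 higher and 5 lower with miR-511 mimic, against 25.7% of all. The median log2FC over the 32 genes was -0.02 and the median size of it 0.15, against 0.01 and 0.079 over all tested probes, which describes a list and tests nothing.

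Levels of the members also differed between the experiments. In a fit of treatment and experiment, 13 of 40 member probes were called for experiment 2 minus experiment 1, 6 higher and 7 lower, against 11.6% of all tested probes, 4.78% higher and 6.77% lower, and none passed adjustment in limma (0% of all). By gene, CCL4, CCL20, CCL25, CXCL1 and CXCR2 were higher in experiment 2 by 0.39 to 0.65, and CCL2, CCL23, CCR7, CXCL10, CXCR3 and CXCR4 were lower.

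CCR7 fell by 0.87 (SE 0.15), and CCL2, with 1 array not well above background, by 0.68 (SE 0.077). For CXCL10 the miR-511 mimic arrays give no size, and the control arrays read 4.57 and 3.62. CXCR4 fell by 0.25 under both treatments alike. Of the 7 genes called with the block, 5 differed between experiments as well: CCL2, CCL4, CCL25, CXCL10 and CXCR3.

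Promoters were searched for the NF-kB type motif GGANTTTCC on both strands, since NF-kB is the known inducer of many inflammatory chemokines, over 250 bases before to 50 after each start in RefSeq on GRCh38.p14. The motif was present for 549 of 27305 genes (2.01%) and for 8 of the 44 member genes found in that table (18.2%), all of them CXC ligands on chromosome 4. The other 16 members had no entry and were not searched, among them CCL2, CCL4, CCL5, CCL11, CCL17, CXCL16, CX3CL1 and CCR7. Whether those carry the motif is therefore not known here. Of the 8 genes with the motif, the 4 that were tested on the arrays are shown with it in capitals, reading along the gene.
CXCL1: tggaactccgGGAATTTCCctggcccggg
CXCL2: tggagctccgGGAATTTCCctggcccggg
CXCL5: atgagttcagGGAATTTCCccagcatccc
CXCL10: aggagcagagGGAAATTCCgtaacttgga
These lie at chr4:73869305-73869333 (plus strand) for CXCL1, chr4:74099254-74099282 (minus) for CXCL2, chr4:73998749-73998777 (minus) for CXCL5 and chr4:76023655-76023683 (minus) for CXCL10, where the motif is in reverse. The others with the motif, CXCL3, CXCL6, CXCL11 and IL8, were well above background on no array. The genes shown did not move together: log2FC was 0.21 for CXCL1, 0.08 for CXCL5, 0.03 and 0.40 for the probes of CXCL2, and CXCL10 was the lower one. A match describes letters in this window and not a bound site.

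A further 59 genes were listed and are called signalling genes below. They carry the signal of chemokine receptors, are chemokines, chemokine-like factors or atypical receptors outside the naming rule, or are receptors of other chemoattractants. Of the 59, 56 were on the array, 42 were well above background on all 4 arrays and 44 were tested. Of these, 0 were called higher, 1 lower and 43 not called, a count near the 2.20% called over all tested probes. ARRB1, the arrestin that binds phosphorylated receptors and ends their signal, read 7.98 and 8.31 in experiment 1 and 7.63 and 8.18 in experiment 2, and fell by 0.44 (SE 0.156, limma p 0.0473). The call of ARRB1 was lost at about the same log2FC with 75th percentile scaling (-0.44), without the filter on dim probes (-0.44) and in the plain test without moderation (-0.44), and at -0.28 after normexp. It was also lost without the control array of experiment 1 (-0.37), the miR-511 mimic array of experiment 2 (-0.26) or the control array of experiment 2 (-0.50), and kept without the miR-511 mimic array of experiment 1 (-0.61).

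The most brightly measured gene of each further group was not called. GNAI2, the inhibitory G protein subunit of leukocytes, read 17.05 and 16.87, then 16.84 and 16.76, for a log2FC of 0.13 (SE 0.12). The log2FC was -0.03 for ADRBK1, a kinase that phosphorylates active receptors, -0.02 for RGS19, which speeds the shut-off of inhibitory G proteins, and -0.002 for RAC2, the Rac protein of blood cells. It was 0.04 for PTAFR, the receptor of platelet-activating factor, and -0.08 for CKLF, a chemokine-like factor. Over the 44 genes log2FC ran from -0.44 to 0.46 with a median of -0.004.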

How the data were processed

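The authors hybridized Cy3-labelled RNA to single-dye Agilent arrays and deposited, per array, the processed intensity of each spot (Agilent Feature Extraction 10.5.1.1), background-subtracted within the array, with no scaling across arrays. Their own quantile-normalized log2 table, likewise deposited, served as an alternative. Per the labels and methods, quantile normalization, limma and an unadjusted p below 0.05 were the study's; no comparison columns of the authors were used.

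From these, the 43118 non-control spots were put on the log2 scale in R 4.3.3. Spots the scanner software marked as outliers (232 to 301 per array) were left out, arrays were quantile normalized and spots of a probe averaged. A probe printed 10 times was well above background when more than 50% of its spots were. Probes with a value on all 4 arrays and well above background on both arrays of a treatment were tested (22638 of 34127, 66.3%) with limma 3.58.1 (lmFit, eBayes, two-sided), with no experiment term, and adjusted over all tested probes. Functions were checked on simulated data. Probe positions are those of hg19 in the files. Accessions matched RefSeq for 74 of 75 member probes.

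The experiment number in the labels pairs the arrays, and deviations from the treatment means correlated at 0.271 between arrays of 1 experiment. All arrays lay on 1 slide and scan, so no slide block was run. Alternatives were the experiment as a block, 75th percentile scaling, normexp (offset 50), no or a stricter filter on dim probes, marked spots kept, the deposited table, an intensity trend, a plain test of each averaged probe without moderation, and leaving out each array. The study's further condition over identical replicate probes was not applied.

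Members and gene lists were chosen with earlier results of these data known. Counts cover all members, and 1 tested member and 1 marker are not reported here by name. Every other member with a tested probe is given at its brightest one, with further probes where sign or call differs. Of the signalling genes, those called and the brightest of each group are named.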

Additional observations from a re-analysis of the deposited data

How the results depend on the processing

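With the experiment as a replicate block, member probes called went from 3 to 10, genes at their brightest probe from 1 to 7 and all tested probes from 498 to 894, and the 3 member probes called without the block were called with it. The plain test without moderation called 5 member probes and 2 genes. The number of genes was 3 after normexp, 2 with no filter on dim probes and 2 with a variance trend, and that of all probes was 265, 1029 and 285. The count for signalling genes went from 1 to 0 with 75th percentile scaling, normexp or no filter on dim probes. Leaving out 1 array gave 2 to 6 member probes, 1 to 4 genes, 709 to 1440 probes of the array and 0 to 2 signalling genes. The count of 13 probes that differ between experiments stayed within 1.5 times in every alternative run, and leave-one-out could not be fitted for it.

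Small differences reversed: CCL19 to 0.017, CCL27 to 0.052 and CX3CR1 to 0.055 after normexp, and CCL23 to 0.0018 with 75th percentile scaling. Without 1 array these crossed 0: CCL16 (-0.00066 to 0.16), CCL20 (-0.28 to 0.18), CCL23 (-0.24 to 0.23), CCL27 (-0.42 to 0.41), CCL28 (-0.068 to 0.0018), CCR6 (-0.21 to 0.0069), CCR7 (-0.74 to 0.35), CCR10 (-0.62 to 0.14), CX3CR1 (-0.095 to 0.064), CXCL1 (-0.073 to 0.49), CXCL2 (-0.31 to 0.36), CXCL12 (-0.21 to 0.022), CXCL16 (-0.35 to 0.079), CXCR2 (-0.37 to 0.14), CXCR3 at its dimmer probe (-0.10 to 0.15) and CXCR4 (-0.11 to 0.15). These moved by over 1.5 times without crossing 0: CCL15 (0.12 to 0.24), CCL17 (-0.22 to -0.091), CCL19 (-0.26 to -0.079), CCR1 (-0.080 to -0.0020) and CXCL5 (0.046 to 0.12). Adjusted calls of members were 0 in every setting. Values near background are the least certain, and the cause was not tested.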
